A study of Mus musculus with 4 samples.

Results

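The genes described here encode the glycoproteins of the extracellular matrix and the elastic fibres: fibronectin, tenascins, thrombospondins, fibrillins, latent TGF-beta binding proteins, elastin, fibulins, emilins, lysyl oxidases, a group of matricellular and adhesive proteins, and the proteins that anchor an epithelium to its basement membrane. They were chosen by symbol, as a list of 38 genes, and every one of the 38 had a row among the 23361 genes of the expression table. Of these, 30 reached the level required for testing, a mean of at least 0.5 FPKM (fragments scaled to the length of the transcript and to the mapped fragments of the library) over the 4 libraries. The other 8 are given by their values alone.

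RNA was sequenced from epithelial cells of embryonic hair pegs, the downgrowths of the epidermis from which hair follicles form. The mice were Shh- or Nfatc1-CreER::Rosa-stop-tdTomato::K14-H2BGFP, and pregnant females received Tamoxifen once, at E15.5. CreER was thus driven by Shh or by Nfatc1 and switched on the red reporter in the cells that then expressed the driver and in their descendants, while K14-H2BGFP gave epithelial cells of both populations a green nucleus. Back skin was taken at E17.5, and double-positive cells made up 2 libraries of Nfatc1+ cells and 2 of Shh+ cells, named by replicate below. The Nfatc1+ cells were freed by 16 min of 0.25% trypsin on intact skin at 37°C. The Shh+ cells came from skin that had spent 1 h in 0.4 mg/ml dispase and lost its epidermis before 10 min of trypsin. The enzymes, the removal of the epidermis and the population changed together, and their parts in any difference below cannot be told apart. These are bulk libraries, in which fewer cells of a type and less RNA per cell cannot be told apart either.

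Matrix glycoproteins are secreted by epithelial and stromal cells alike. Fibronectin assembles into fibrils along integrins; fibrillin microfibrils carry elastin, fibulins and the latent TGF-beta binding proteins (LTBPs), which hold TGF-beta in an inactive complex; lysyl oxidases cross-link elastin and collagen. FRAS1, FREM1 and FREM2 form a complex under the epidermis whose loss gives embryonic skin blisters, and nephronectin in the basement membrane of the hair follicle bulge is a ligand of integrin α8β1, which arrector pili muscle cells carry.

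The driver genes were at the levels their labels imply. Shh measured 10.5 and 11.7 FPKM in the Nfatc1+ libraries and 144 and 145 FPKM in the Shh+ libraries, and Nfatc1 measured 112 and 116 against 25.3 and 20.1 FPKM. Epithelial keratins were abundant in each library, with Krt14 between 1030 and 1232 FPKM. Of 12 fibroblast markers none was at 0. Their summed level was 395 and 699 FPKM in Nfatc1+ replicates 1 and 2 and 654 and 719 FPKM in Shh+ replicates 1 and 2. Dcn supplied 326 and 425 FPKM of the Shh+ sums, against 40.3 and 57.7 FPKM in the Nfatc1+ libraries. The sums therefore do not stand for the other markers: the median log2 fold change (Shh+ minus Nfatc1+) of the 12 was -0.32. Endothelial (4.87 to 6.98 FPKM) and immune (6.65 to 12.1 FPKM) marker sums were low. The most abundant immune marker, Cd68, lay between 2.85 and 6.23 FPKM, and Aif1 was higher in Shh+ cells (0.963 and 0.648 against 2.73 and 4.19 FPKM, limma adjusted p = 0.00945). Of the 6 immune markers 4 were tested. The other 3 of these, Cd68 among them, did not pass, and over all tested genes 14.9% were higher in Shh+ cells. The sequencing depth is not given with FPKM values, but the steps between low values put it, relative to Nfatc1+ replicate 1, at 0.927 for Nfatc1+ replicate 2, 0.927 for Shh+ replicate 1 and 0.575 for Shh+ replicate 2.

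The list split between the populations. In limma's test, with Benjamini-Hochberg adjustment over 12750 genes and a threshold of 0.05, 16 of the 30 tested members differed: 11 were higher in Nfatc1+ cells (36.7%) and 5 were higher in Shh+ cells (16.7%). Over all tested genes, 31.4% differed, 16.6% with the higher level in Nfatc1+ cells and 14.9% with the higher level in Shh+ cells. When a ratio of group means of at least 2 was also required, 6 members were higher in Nfatc1+ cells (20%, against 6.73% of all genes) and 4 in Shh+ cells (13.3%, against 5.96%). The groups of 2 libraries did not overlap for 23 of 30 members (76.7%), close to the 70.7% of all genes. The median log2 fold change, taken throughout as Shh+ minus Nfatc1+ of log2(FPKM + 0.5), was -0.18 for the members and 0.0018 for all genes. The count of 11 came to 7 without Shh+ replicate 1 and to 7 without Shh+ replicate 2.

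**Figure D1:**
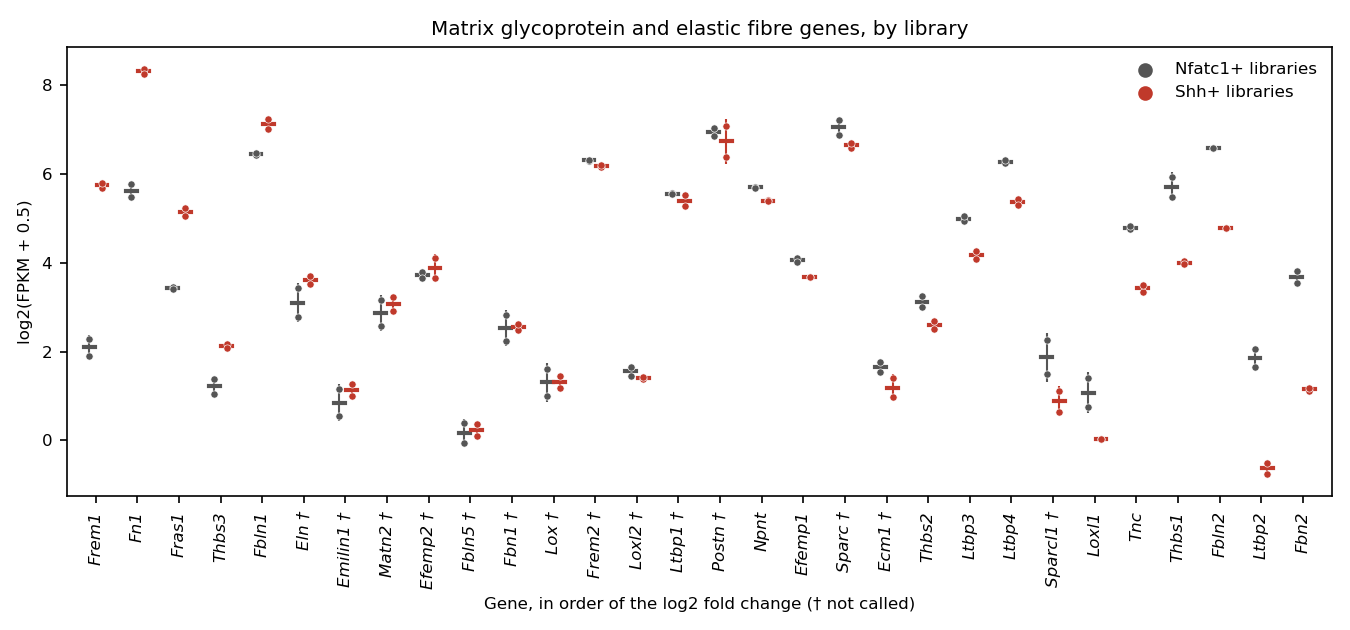
Level of each of the 30 tested genes in each library, as log2(FPKM + 0.5), in order of the log2 fold change from higher in Shh+ cells (left) to higher in Nfatc1+ cells (right). Points are libraries (grey, Nfatc1+; red, Shh+), horizontal bars are group means and vertical lines are SD (n = 2). The separation between grey and red is wide at both ends of the order and small in the middle, where some groups overlap (Postn) and others do not (Frem2).

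The largest log2 fold change of the list was in the proteins that hold the epidermis to its basement membrane. Frem1, which encodes a subunit of the FRAS1/FREM complex (chr4:82897920-83052339, GRCm38), measured 3.26 and 4.38 FPKM in the Nfatc1+ libraries and 51.4 and 55.3 FPKM in the Shh+ libraries. Its mean was 14-fold higher in Shh+ cells (log2 fold change 3.65, SE 0.15, adjusted p = 0.000573). Fras1, whose product spans the membrane and gives the complex its name (chr5:96373955-96784728), measured 10.5 and 10.1 FPKM against 37.3 and 32.9 FPKM. Its level was 3.41-fold higher in Shh+ cells (log2 fold change 1.72, SE 0.09, adjusted p = 0.000871). For both genes the 2 Shh+ libraries lay far above the 2 Nfatc1+ libraries.

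The third subunit gene, Frem2, did not pass the test. It measured 78.7 and 79.4 FPKM in Nfatc1+ cells and 70.8 and 73.4 FPKM in Shh+ cells, a log2 fold change of -0.13 with a 95% interval from -0.33 to 0.06 (adjusted p = 0.24). Frem2 therefore made up 85.1% and 84.6% of the summed FPKM of the 3 genes in Nfatc1+ cells and 44.4% and 45.4% in Shh+ cells, and Frem1 made up 3.53% and 4.66% against 32.2% and 34.2%. The sum itself was 92.4 and 93.9 FPKM in Nfatc1+ cells and 159.5 and 161.6 FPKM in Shh+ cells. These shares are descriptions, since an exact permutation test of 2 libraries against 2 cannot give a p below 0.333.

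Npnt, which encodes nephronectin, was at a similar high level in both populations, 51.9 and 51.2 FPKM in Nfatc1+ cells and 42.2 and 41.5 FPKM in Shh+ cells. The 1.23-fold higher level in Nfatc1+ cells passed the threshold (log2 fold change -0.30, SE 0.07, adjusted p = 0.0404), but not when any 1 library was left out. Matn2, a filament-forming matrilin, measured 5.51 and 8.41 FPKM against 7.10 and 8.91 FPKM, and its groups overlapped (adjusted p = 0.527).

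Promoters are shown for the genes with the largest fold changes in each direction that had an entry in the RefSeq promoter table (GRCm38.p6, 250 bases before to 50 after a transcription start), so that the starts of genes that differed in opposite directions can be read side by side. Capitals mark the words AACAAAG (a form of the TCF/LEF site), GGAAA (the NFAT core) and GGGCGG (the GC box), on either strand. The Frem1 window is chr4:83052117-83052416 on the minus strand, the more upstream of 2 annotated starts. The Thbs3 window is chr3:89214930-89215229 on the plus strand. Those of genes higher in Nfatc1+ cells are Ltbp2 at chr12:84876442-84876741 on the minus strand and Fbln2 at chr6:91212514-91212813 on the plus strand.
Frem1: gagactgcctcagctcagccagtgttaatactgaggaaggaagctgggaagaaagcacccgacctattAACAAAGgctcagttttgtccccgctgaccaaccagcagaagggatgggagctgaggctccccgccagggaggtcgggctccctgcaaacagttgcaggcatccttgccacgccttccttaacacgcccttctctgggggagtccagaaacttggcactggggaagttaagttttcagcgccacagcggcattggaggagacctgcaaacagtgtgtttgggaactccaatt
Thbs3: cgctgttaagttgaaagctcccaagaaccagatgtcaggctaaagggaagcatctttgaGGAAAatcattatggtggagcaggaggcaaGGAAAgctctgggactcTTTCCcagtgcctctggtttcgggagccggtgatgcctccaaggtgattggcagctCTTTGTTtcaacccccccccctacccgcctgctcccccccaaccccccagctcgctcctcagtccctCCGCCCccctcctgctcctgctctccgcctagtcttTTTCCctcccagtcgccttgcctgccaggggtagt
Ltbp2: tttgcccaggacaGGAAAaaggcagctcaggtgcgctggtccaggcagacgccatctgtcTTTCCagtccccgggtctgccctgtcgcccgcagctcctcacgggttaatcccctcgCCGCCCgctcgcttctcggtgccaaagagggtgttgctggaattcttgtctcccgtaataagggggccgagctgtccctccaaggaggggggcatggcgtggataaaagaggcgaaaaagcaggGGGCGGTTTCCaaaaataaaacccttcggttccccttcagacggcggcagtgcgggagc
Fbln2: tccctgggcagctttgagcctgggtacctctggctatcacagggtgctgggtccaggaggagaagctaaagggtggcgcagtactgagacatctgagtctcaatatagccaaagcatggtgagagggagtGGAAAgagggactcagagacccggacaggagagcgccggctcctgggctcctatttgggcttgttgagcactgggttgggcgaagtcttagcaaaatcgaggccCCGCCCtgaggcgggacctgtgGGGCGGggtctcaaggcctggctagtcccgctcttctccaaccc
AACAAAG stood once in the Frem1 window and once in the Thbs3 window, and in neither of the others. Among the 40 windows of the 27 members in the table it was found in 3, the 2 of Frem1 and that of Thbs3, against 5.85% of all 32851 windows. ATCAAAG, another TCF/LEF form, was in none of the 40 windows, against 3.73% of all. GGAAA was in 30 of the 40 windows (61.3% of all windows), GGGCGG in 20 (35.7%), TATAAA, the TATA box, in 7 (13.6%) and TGANTCA, the AP-1 word, in 4 (7.81%). The words do not contain one another. The median GC content was 57.2% in the member windows and 52.7% in all windows, which bears on the count of GC boxes. Some windows of the same gene overlap, as for Ltbp4, so the 40 are not independent. A match is a description of the letters only, and binding was not measured.

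**Figure D2:**
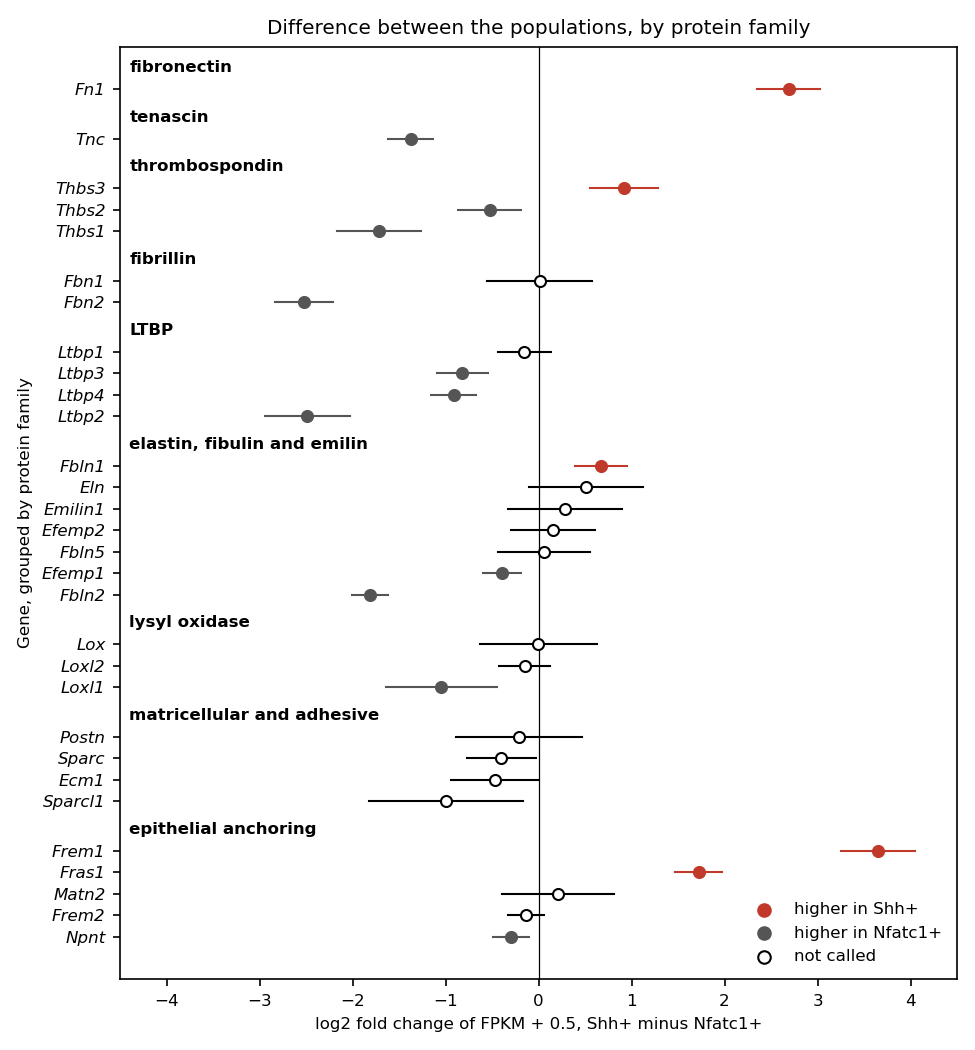
Log2 fold change of FPKM + 0.5 (Shh+ minus Nfatc1+) of each tested gene, grouped by protein family, with 95% intervals from the fit. Filled red circles are higher in Shh+ cells, filled grey circles are higher in Nfatc1+ cells and open circles did not pass the test; the families of thrombospondins, fibulins and FRAS1/FREM proteins hold genes on both sides of 0.

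Fibronectin was the most abundant transcript of the list in Shh+ cells. Fn1 (chr1:71585520-71653200) measured 44.1 and 54.1 FPKM in Nfatc1+ cells and 332 and 305 FPKM in Shh+ cells, without overlap. The mean was 6.49-fold higher in Shh+ cells (log2 fold change 2.69, SE 0.13, adjusted p = 0.000696). Fn1 alone supplied 30.3% and 27.8% of the summed FPKM of all 38 genes in the Shh+ libraries and 4.84% and 5.35% in the Nfatc1+ libraries. With Fn1 the sums were 910 and 1011 FPKM in Nfatc1+ cells and 1099 and 1095 FPKM in Shh+ cells. Without it they were 866 and 957 FPKM in Nfatc1+ cells and 766 and 791 FPKM in Shh+ cells, so the order of the populations in the summed level turned on this gene.

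Tenascin C, a glycoprotein that modulates adhesion to fibronectin, went the other way. Tnc (chr4:63959785-64047015) measured 26.8 and 27.8 FPKM in Nfatc1+ cells and 9.66 and 10.8 FPKM in Shh+ cells, a 2.67-fold higher level in Nfatc1+ cells (log2 fold change -1.37, SE 0.09, adjusted p = 0.00131). The other tenascins were below the level required for testing. Tnxb measured 0.567 and 0.671 FPKM in Nfatc1+ cells and 0.0394 and 0.0159 FPKM in Shh+ cells, and Tnr, the tenascin of the nervous system, did not exceed 0.0355 FPKM.

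The thrombospondins, secreted proteins that bind calcium, did not move as a family. Thrombospondin 1 also binds CD47 and CD36 and activates latent TGF-beta. Thbs1 (chr2:118111876-118127133) measured 44.4 and 61.1 FPKM in Nfatc1+ cells and 15.8 and 15.2 FPKM in Shh+ cells. It was 3.4-fold higher in Nfatc1+ cells (log2 fold change -1.71, SE 0.17, adjusted p = 0.00349). Thbs2 was 1.48-fold higher in the same cells, at 7.48 and 9.09 against 5.20 and 5.97 FPKM (adjusted p = 0.0412). That call was lost when any 1 library was left out.
Thbs3, by contrast, measured 1.56 and 2.12 FPKM in Nfatc1+ cells and 4.02 and 3.76 FPKM in Shh+ cells, a 2.11-fold difference in favour of Shh+ cells (log2 fold change 0.92, SE 0.14, adjusted p = 0.0111). This value is uncertain: Thbs3 shares 318 exonic bases, 6.59% of its exons, with Mtx1 on the opposite strand. No source used here tells if fragments were counted by strand. Mtx1 averaged 22.3 FPKM, at 22.9 and 20.7 FPKM in Nfatc1+ cells and 23.4 and 22.1 FPKM in Shh+ cells. Its part in the values of Thbs3 was not tested. The call also missed the threshold without Shh+ replicate 1 (adjusted p = 0.0588). Thbs4 was at 0.0848 and 0.0610 FPKM in Nfatc1+ cells and was listed at 0 in both Shh+ libraries. Thbs1 made up 83.1% and 84.5% of the summed FPKM of Thbs1, Thbs2 and Thbs3 in Nfatc1+ cells and 63.2% and 61.0% in Shh+ cells.

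Among the fibrillins, which form the microfibrils that elastin is laid on, Fbn2 differed and Fbn1 did not pass the test. Fbn2 (chr18:58008623-58210487) measured 11.1 and 13.5 FPKM in Nfatc1+ cells and 1.66 and 1.78 FPKM in Shh+ cells. It was 7.16-fold higher in Nfatc1+ cells (log2 fold change -2.52, SE 0.12, adjusted p = 0.000689). Fbn1 measured 4.25 and 6.60 against 5.08 and 5.65 FPKM, overlapping, with a log2 fold change of 0.01 and a 95% interval from -0.55 to 0.58. Fbn1 was 27.6% and 32.8% of the summed FPKM of the 2 fibrillins in Nfatc1+ cells and 75.4% and 76.0% in Shh+ cells.

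Of the 4 LTBPs, 3 were higher in Nfatc1+ cells, a direction called for 16.6% of all tested genes. Ltbp2 (chr12:84783212-84876532), the member of the family that does not bind latent TGF-beta, had the largest ratio. It measured 2.64 and 3.65 FPKM in Nfatc1+ cells and 0.202 and 0.0928 FPKM in Shh+ cells, a 21.4-fold higher mean in Nfatc1+ cells. This ratio rests on the low Shh+ values and was 33.9-fold without Shh+ replicate 1 and 15.6-fold without Shh+ replicate 2. On the log2(FPKM + 0.5) scale, which understates changes at such low levels, its difference was -2.49 (SE 0.17, adjusted p = 0.00144). Its mean in Shh+ cells, 0.147 FPKM, was below the level required for testing, so the gene entered the test through its level in Nfatc1+ cells.
Ltbp3 measured 30.1 and 32.7 against 18.7 and 16.4 FPKM, 1.79-fold higher in Nfatc1+ cells (adjusted p = 0.0068). Ltbp4, the most abundant LTBP of the Nfatc1+ libraries, measured 75.8 and 78.9 against 43.1 and 38.7 FPKM and was 1.89-fold higher there (adjusted p = 0.00348). Ltbp1 did not pass the test, at 46.9 and 46.4 against 45.5 and 38.5 FPKM (log2 fold change -0.15, 95% interval from -0.44 to 0.13). The share of Ltbp1 in the summed FPKM of the 4 genes was 30.2% and 28.7% in Nfatc1+ cells and 42.3% and 41.1% in Shh+ cells.

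**Figure D3:**
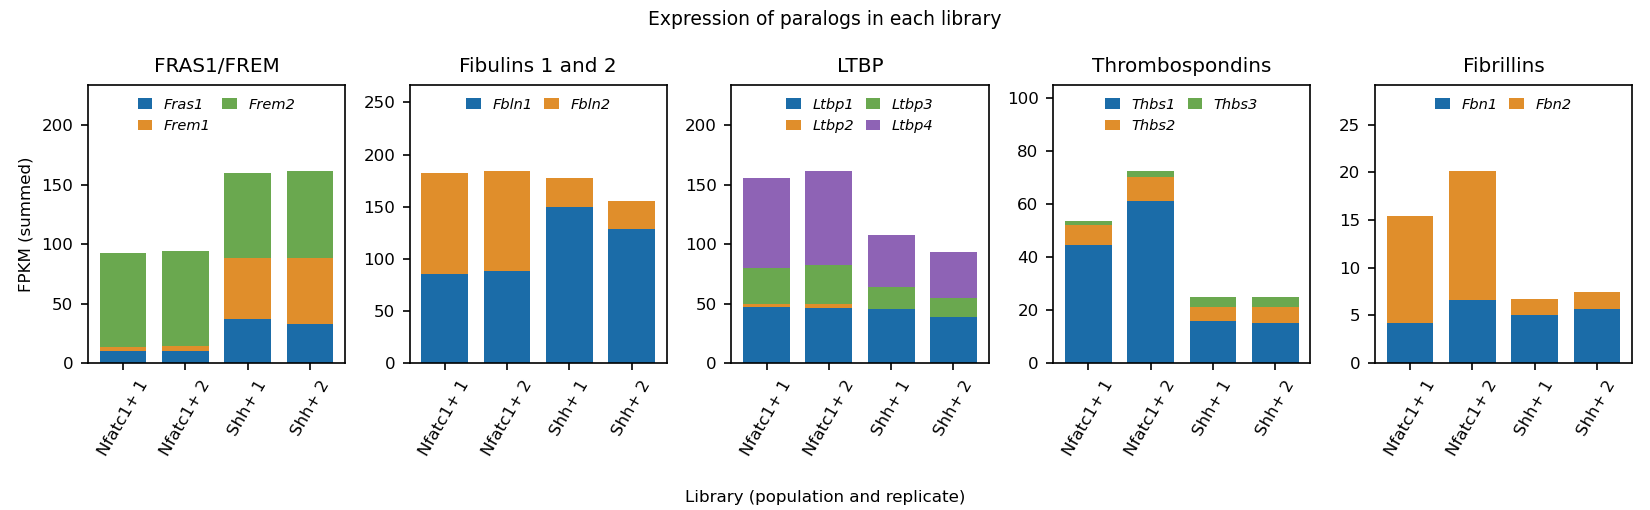
Summed FPKM of related genes in each library, stacked by gene, for the FRAS1/FREM genes, fibulins 1 and 2, the LTBPs, the thrombospondins and the fibrillins (each panel has its own scale from 0). Fibulins 1 and 2 together lie between 155 and 184 FPKM in the 4 libraries, with most of the sum from Fbln1 in the Shh+ libraries and a near even split in the Nfatc1+ libraries.

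The fibulins, glycoproteins that bridge elastic fibres, microfibrils and basement membranes, differed in opposite directions. Fbln2 (chr6:91212455-91272540) measured 96.5 and 96.1 FPKM in Nfatc1+ cells and 27.0 FPKM in each Shh+ library. It was 3.57-fold higher in Nfatc1+ cells (log2 fold change -1.82, SE 0.07, adjusted p = 0.000559). Fbln1 (chr15:85205949-85286535) measured 85.8 and 88.2 FPKM in Nfatc1+ cells and 150.1 and 128 FPKM in Shh+ cells. It was 1.60-fold higher in the latter (log2 fold change 0.67, SE 0.11, adjusted p = 0.0124). Without Nfatc1+ replicate 1 or 2, the adjusted p of Fbln1 was 0.0625 or 0.055. The sum of the 2 genes was 182 and 184 FPKM in Nfatc1+ cells and 177 and 155 FPKM in Shh+ cells, of which Fbln1 made up 47.1% and 47.8% and then 84.8% and 82.6%.

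The fibulins that help assemble elastic fibres differed little. Efemp1, fibulin 3, measured 16.7 and 15.8 against 12.3 and 12.3 FPKM and was 1.32-fold higher in Nfatc1+ cells (adjusted p = 0.0225), a call lost when any 1 library was left out. Efemp2, fibulin 4, which brings lysyl oxidase to elastin, measured 13.3 and 12.2 against 16.8 and 12.2 FPKM and overlapped (adjusted p = 0.526). It shares 173 exonic bases with Mus81 on the opposite strand. Fbln5, which tethers elastin to microfibrils, stayed between 0.465 and 0.810 FPKM in the 4 libraries (adjusted p = 0.841).

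Elastin itself, encoded by Eln, measured 6.41 and 10.2 FPKM in Nfatc1+ cells and 12.5 and 11.1 FPKM in Shh+ cells. The groups did not overlap, but the difference between the Nfatc1+ replicates was large and the test was not passed (log2 fold change 0.51, SE 0.23, adjusted p = 0.166). Emilin1, a glycoprotein at the interface of elastin and microfibrils, measured 0.963 and 1.71 against 1.91 and 1.49 FPKM (adjusted p = 0.4). Emilin2 was below the level required for testing, at 0.390 and 0.842 FPKM in Nfatc1+ cells and 0.421 and 0.279 FPKM in Shh+ cells.

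The lysyl oxidases were expressed at low levels in both populations. Loxl1, which is needed for elastic fibre renewal, measured 1.19 and 2.13 FPKM in Nfatc1+ cells and 0.525 and 0.518 FPKM in Shh+ cells. It was 3.19-fold higher in Nfatc1+ cells (log2 fold change -1.05, SE 0.22, adjusted p = 0.0293), and the call was lost without Shh+ replicate 1 or 2 (adjusted p = 0.108 and 0.107). Lox measured 1.5 and 2.56 against 1.75 and 2.21 FPKM (adjusted p = 0.998), and Loxl2 measured 2.23 and 2.66 against 2.12 and 2.17 FPKM (adjusted p = 0.323). Loxl3 and Loxl4 did not reach the level required for testing, with highest values of 0.310 and 0.511 FPKM, both in Nfatc1+ replicate 2.

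Of the 6 matricellular and adhesive genes 4 were tested, and none passed limma's adjusted threshold. At an unadjusted p under 0.05, which 43.6% of all tested genes reached, and with limma-trend, which called 37% of them, the count was 2 of 4 (Sparc and Sparcl1). The most abundant were Sparc and Postn. Sparc, whose product binds collagen and calcium, measured 118 and 148 FPKM in Nfatc1+ cells and 96.0 and 104 FPKM in Shh+ cells, without overlap (log2 fold change -0.40, SE 0.14, adjusted p = 0.0954). Postn, which encodes periostin, measured 116 and 131 against 82.8 and 136 FPKM, and the 2 Shh+ libraries enclosed both Nfatc1+ libraries (adjusted p = 0.562).
Sparcl1, a relative of Sparc, measured 2.30 and 4.30 against 1.07 and 1.67 FPKM (log2 fold change -0.99, SE 0.31, adjusted p = 0.0763). Ecm1, a glycoprotein of skin that binds other matrix proteins, measured 2.92 and 2.40 against 2.13 and 1.46 FPKM (adjusted p = 0.115). Osteopontin (Spp1) and vitronectin (Vtn), both ligands of αv integrins, did not exceed 0.0736 and 0.0585 FPKM.

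The levels of the 38 genes spread over a wide range in both populations. In Nfatc1+ cells 8 had a mean of at least 50 FPKM, 8 were from 10 to under 50 FPKM, 16 from 0.5 to under 10 FPKM and 6 were below 0.5 FPKM. In Shh+ cells the same bands held 6, 11, 12 and 9 genes. Sparc had the highest mean in Nfatc1+ cells (133 ± 21.7 FPKM, SD, n = 2), followed by Postn (124 ± 10.5 FPKM), Fbln2 (96.3 ± 0.266 FPKM) and Fbln1 (87.0 ± 1.67 FPKM). Sparc and Postn did not differ beyond their spread. In Shh+ cells the order began with Fn1 (319 ± 19.7 FPKM), Fbln1 (139 ± 16 FPKM), Postn (109 ± 37.7 FPKM) and Sparc (100.2 ± 5.85 FPKM), of which the last 3 lay within the spread of Postn. At its level in Shh+ cells Fn1 exceeded 98.6% of all tested genes, and in Nfatc1+ cells 86.7%.

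Part of the list also differed between the replicates of 1 population. In Nfatc1+ cells 23 of the 30 tested members were higher in replicate 2 than in replicate 1, with a median difference of 0.27 on the log2(FPKM + 0.5) scale, while over all genes 6357 of 12750 were higher and the median was -0.0001. In Shh+ cells 14 of 30 members were higher in replicate 2, with a median of -0.0057. The fibroblast markers moved with the members: 12 of 12 were higher in Nfatc1+ replicate 2, with a median of 0.92, and 4 of 12 in Shh+ replicate 2, with a median of -0.19. Col1a1 measured 77.9 and 165 FPKM in the Nfatc1+ libraries and 71.6 and 52.7 FPKM in the Shh+ libraries.
The members with a replicate difference above 0.5 in Nfatc1+ cells were Fbn1, Eln, Emilin1, Lox, Loxl1, Sparcl1 and Matn2, and only Loxl1 of these 7 passed the test between the populations. Their part in the results was not tested. Frem1, Fras1, Fn1, Fbn2, Ltbp2, Fbln2, Thbs1 and Tnc kept their calls without Nfatc1+ replicate 2 and without each of the other libraries. Between the populations, 2 fibroblast markers were higher in Shh+ cells, Dcn (40.3 and 57.7 against 326 and 425 FPKM) and Col5a2, 1 was higher in Nfatc1+ cells, Vim, and 9 did not pass the test.

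**Figure D4:**
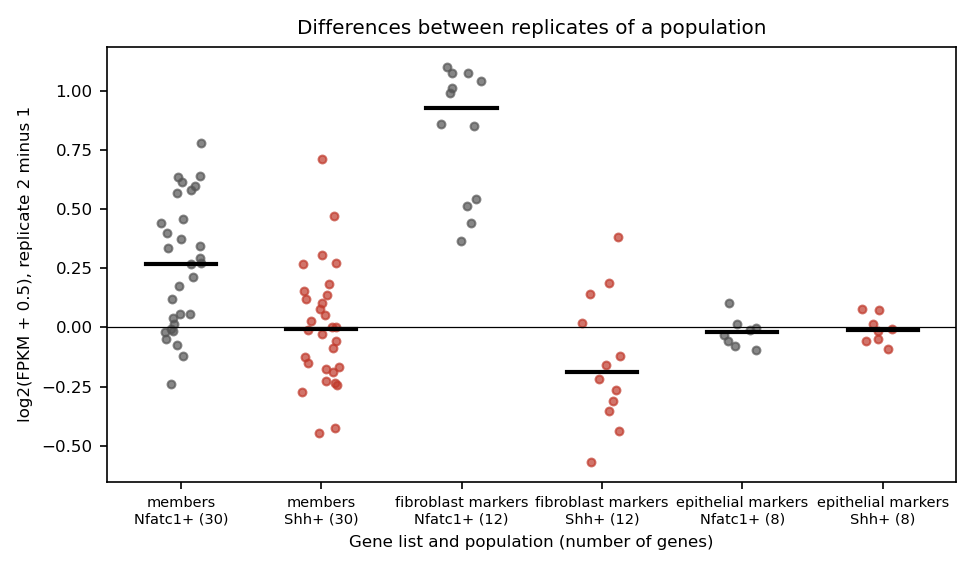
Difference between replicates of 1 population, as log2(FPKM + 0.5) of replicate 2 minus replicate 1, for the tested members, the fibroblast markers and the epithelial markers. Each point is a gene and the black bar is the median; in Nfatc1+ cells the members' median is 0.27 and that of the fibroblast markers 0.92, while epithelial markers stay near 0.

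Other values moved with the populations as well, apart from most melanocyte markers. Of 21 immediate early and stress genes, such as Fos, 12 were higher in Nfatc1+ cells and 9 did not pass the test. For this and the next lists, the shares over all tested genes were 16.6% higher in Nfatc1+ cells and 14.9% higher in Shh+ cells. Fos averaged 776 against 225 FPKM. The summed level of the Merkel cell markers was 59.5 and 67.1 FPKM in Nfatc1+ cells against 23.9 and 29.1 FPKM. Of the 8 tested, 7 were higher in Nfatc1+ cells, but Atoh1, Isl1 and Krt20 reached the tested level only through those cells. The sums of the epithelial markers were 8744 and 8609 FPKM in Nfatc1+ cells and 5668 and 5622 FPKM in Shh+ cells, a gap that lay mostly in Krt5 (means of 4320 and 2429 FPKM) and Krt15 (1819 and 821 FPKM). Of these 8 markers 4 were higher in Nfatc1+ cells, 1 was higher in Shh+ cells (Dsp, 211 against 305 FPKM) and 3 did not pass the test. Melanocyte markers summed to 31.1 and 65.0 FPKM in Nfatc1+ cells and to 7.99 and 42.4 FPKM in Shh+ cells, so the groups overlapped. All 9 tested melanocyte markers were higher in replicate 2 than in replicate 1 in both populations. Only Mitf passed the test between the populations (9.74 and 12.3 against 0.860 and 1.29 FPKM, limma adjusted p = 0.00121), and 8 did not. The parts of all these genes in the members' differences were not tested.

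Genes of related function were read from the same fit. Among 28 other matrix glycoproteins 17 were tested, of which 8 were higher in Nfatc1+ cells, 2 were higher in Shh+ cells and 7 did not pass, with a median log2 fold change of -0.69. Tgfbi, an integrin ligand induced by TGF-beta, measured 38.3 and 44.4 FPKM in Nfatc1+ cells and 4.31 and 3.86 FPKM in the Shh+ libraries (log2 fold change -3.19, SE 0.11, adjusted p = 0.000502). Egflam, which encodes pikachurin, a ligand of dystroglycan, measured 9.93 and 11.5 against 1.27 and 1.17 FPKM (log2 fold change -2.70). Smoc1 and Egfl6 followed at -1.42 and -1.18.
The genes higher in Shh+ cells were Thsd4, whose product binds fibrillin 1 (2.18 and 2.67 against 11.5 and 9.80 FPKM, log2 fold change 1.93, adjusted p = 0.00135), and Smoc2 (184 and 180 against 240 and 245 FPKM, log2 fold change 0.41). The count of 8 was 5 without Shh+ replicate 1 and 5 without Shh+ replicate 2, and the count of 2 was 1 whichever library was left out.

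Of 15 receptors of these proteins 14 were tested, of which 9 were higher in Nfatc1+ cells, 2 were higher in Shh+ cells and 3 did not pass, with a median log2 fold change of -0.62. Cd44, the hyaluronan receptor, which also binds osteopontin, measured 186 and 181 FPKM in Nfatc1+ cells and 26.6 and 28.7 FPKM in the Shh+ libraries (log2 fold change -2.71, SE 0.08, adjusted p = 0.000386). Itga4 (-1.87) and Itga8 (-1.84), subunits of receptors for fibronectin and nephronectin, and Itgb6 (-1.39), a partner of αv in epithelia, followed. Cd36 and Cd47, receptors of thrombospondin 1, and Itgb8, Itgav and Itgb1 were the other 5. Itga8 itself measured 3.41 and 3.77 against 0.643 and 0.638 FPKM.
In Shh+ cells Itga9, a subunit of a tenascin C receptor, was higher at 0.214 and 0.629 against 1.44 and 1.20 FPKM (log2 fold change 1.02, adjusted p = 0.0374), and entered the test through its level in these cells, since its mean in Nfatc1+ cells, 0.422 FPKM, was below the level required. The same direction was found for Itgb5 at 87.1 and 84.6 against 120 and 109 FPKM (log2 fold change 0.41, adjusted p = 0.0269). Neither of these 2 calls held without Shh+ replicate 1 or without Shh+ replicate 2, and the count was 1 without either Nfatc1+ library. Itga5, the main fibronectin receptor subunit, did not pass the test.

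**Figure D5:**
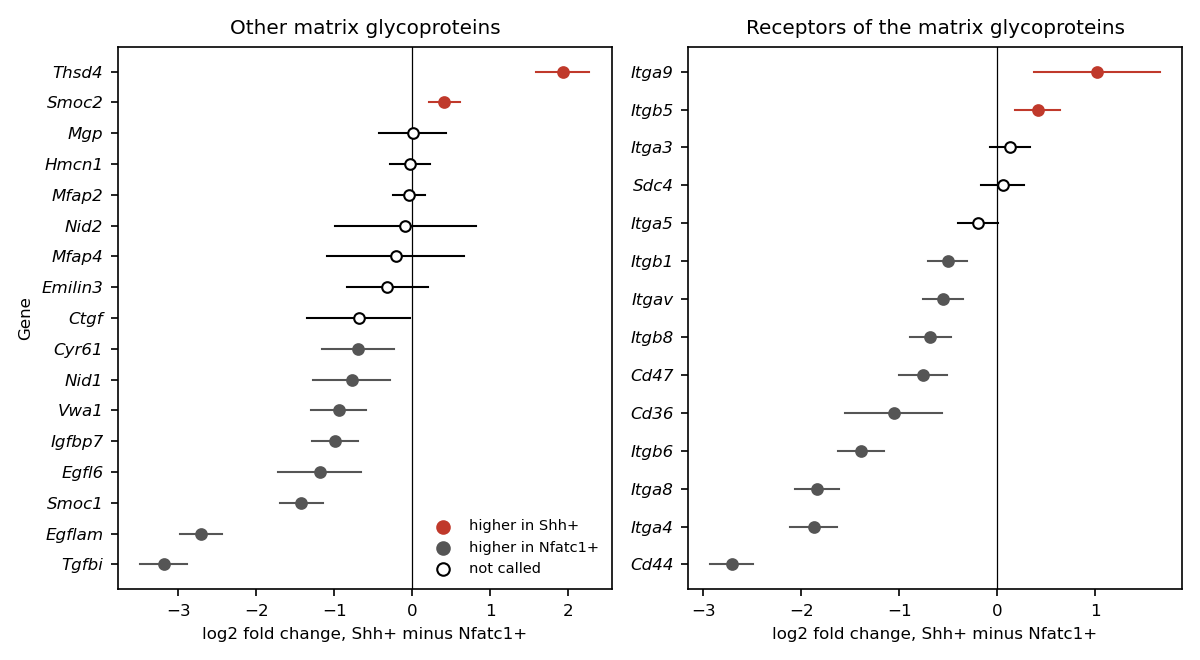
Log2 fold change of FPKM + 0.5 (Shh+ minus Nfatc1+) with 95% intervals for the 17 tested genes among other matrix glycoproteins (left) and the 14 tested receptor genes (right). Filled grey circles are higher in Nfatc1+ cells, filled red circles are higher in Shh+ cells and open circles did not pass the test; Tgfbi, Egflam and Cd44 lie farthest to the left and Thsd4 farthest to the right.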

How the data were processed

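The study measured RNA by paired-end sequencing in 2 libraries of Nfatc1+ and 2 of Shh+ cells. The authors mapped reads to mm10 with TopHat (v2.0.13) and deposited FPKM per gene from Cufflinks (v2.2.1). HTSeq is also listed in the submitters' processing notes, without a role. FPKM carry no counts, so the depth is unknown beyond the relative depths given with the samples.

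Values were tested as log2(FPKM + 0.5) with limma 3.58.1 (constant prior variance, no block) in R 4.3.3, on the 12750 genes whose mean reached 0.5 FPKM, with Benjamini-Hochberg adjustment and a threshold of 0.05. Folds are ratios of mean FPKM. The authors' own comparison, made from reads with Cufflinks, cannot be repeated on FPKM. The fit was also run on simulated data. The noise there was drawn independently for each gene, so shifts shared by many genes of 1 library are not covered.

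The libraries carry replicate numbers, but nothing in the sources used here says that they came from separate animals, so p-values cover the variation between libraries alone, and this may be technical. No pairing was assumed. Positions and exon overlaps come from GENCODE annotation of GRCm38, and promoter windows from RefSeq.

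The members and lists were chosen with earlier results of these data known. All tested members are named with values. Of the matrix and receptor lists, the called genes with the largest fold changes are named, up to 4 a direction, and of the marker lists, the most abundant, up to 3. Itga5 and Itga8 levels, the other called receptors, the overlapping neighbours, and single markers outside that rule were named after their values were seen. Alternatives were other pseudocounts, filters, scalings, variance priors and thresholds, a replicate block, and leaving out each library.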

Additional observations from a re-analysis of the deposited data

How the results depend on the processing

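The calls of Fn1, Frem1, Fras1, Fbn2, Ltbp2, Fbln2, Thbs1 and Tnc held under all 13 alternatives. At the study's form of threshold (p under 0.01 without adjustment, fold over 2, here of FPKM + 0.5), 6 members were higher in Nfatc1+ cells and 3 in Shh+ cells, 4 and 1 of the other matrix glycoproteins, 5 and 0 of the receptors, and 1311 of all genes against 4009. Thbs3 and Igfbp7 missed it on that scale, though their ratios of mean FPKM were 2.11 and 2.05. Leaving out 1 library, with the lone library of a group assumed to vary like the other group, gave 7 to 9 members higher in Nfatc1+ cells and 4 to 5 in Shh+ cells, 5 to 9 and 1 of the other matrix glycoproteins, 6 to 9 and 0 to 1 of the receptors, and 2307 to 2576 of all genes. The 2 receptors higher in Shh+ cells became 1 with a pseudocount of 0.1, with no filter and with a filter at 1 FPKM. With limma-trend 13 members were higher in Nfatc1+ cells, with Sparc and Sparcl1 added. Scaling to the upper quartile or the median changed no member's call.

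Directions turned only for members that were not called. With 1 library left out, the log2 fold change ranged from -0.28 to 0.30 for Fbn1, from -0.16 to 0.28 for Fbln5, from -0.0664 to 0.38 for Efemp2, from -0.0150 to 0.58 for Emilin1, from -0.31 to 0.31 for Lox, from -0.57 to 0.14 for Postn and from -0.0751 to 0.49 for Matn2. Lox was also at 0.0049 with a pseudocount of 0.1. Eln passed without Nfatc1+ replicate 2 (limma adjusted p = 0.0289). The cause of these changes was not tested.

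With the replicate number as a block, 12 members were higher in Nfatc1+ cells and 5 in Shh+ cells: Sparcl1 and Ecm1 were added and Npnt was lost. Same-numbered libraries correlated at r = 0.114 in their deviations over 12750 genes, but there are only 2 pairs and nothing in the labels ties them. Whether same-numbered libraries share more than the number is therefore unknown.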
